A study of Hordeum vulgare with 39 samples.

Results

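The seed maternal tissues of barley (Hordeum vulgare) at 24 days after pollination (DAP) were compared with the same tissues at 16 DAP. The 3 libraries titled 24 DAP and the 3 titled 16 DAP were chosen by their titles, 6 of the 39 libraries of the series. All 83990 transcript entries of the count table were considered. The plants were of the six-rowed spring cultivar Morex, with no treatment named in the labels. They grew in a climate chamber with long days, and seed tissues were separated by hand. The series also holds seed maternal tissues at 4 and 8 DAP, embryo at 8 to 32 DAP, and endosperm at 4 to 32 DAP, with 3 libraries in each group. Changes in the endosperm and embryo are taken between 16 and 24 DAP, and their other stages serve to choose or filter genes and are plotted for the named genes. Poly-A selected RNA was read as single-end sequences on an Illumina instrument.

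The maternal tissues of a cereal grain are the layers that come from the mother plant and not from fertilization. In barley these are mainly the pericarp, the seed coat and what remains of the nucellus. They protect the filial tissues and pass sugars and amino acids to the endosperm, and many of their cells die in an ordered way while the grain fills and then dries. The labels do not say which of these layers each dissected sample held, nor whether a library came from 1 plant or several. The spread between the libraries of a group may therefore be partly technical. The edgeR p-values below rest on this spread estimated together over all 39 libraries in 13 groups, not over the 6 libraries alone.

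The 24 DAP libraries had 29977589 to 31702654 counts and the 16 DAP libraries 25882919 to 32244363. Libraries of the same stage correlated at 0.978 to 0.988 at 24 DAP and at 0.970 to 0.990 at 16 DAP (Pearson, across genes, log2(CPM + 1); CPM is a count scaled to its library's total). Libraries of different stages correlated at 0.944 to 0.965. Replicate 1 of 16 DAP stood somewhat apart from the other 16 DAP libraries, with correlations of 0.970 and 0.975 against 0.990 between replicates 2 and 3. The 6 libraries carry consecutive library numbers. The identifiers in the table are not paired with gene names in the sources used here, so genes are described by level, by timing and by their behaviour in the other tissues. An entry of the table is called a gene below, and a CPM is not corrected for gene length.

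Between 16 and 24 DAP, 2402 genes of 29594 tested changed in the seed maternal tissues, which is 8.12%. Of these, 1237 were higher at 24 DAP (4.18% of genes tested) and 1165 were lower (3.94%). Calls rest on edgeR's quasi-likelihood test, with a Benjamini-Hochberg adjusted p under 0.05 and an at least 2-fold change. On the adjusted p alone, 3186 genes passed (10.8%). The genes that rose had a median log2 fold change of 2.98 and a median level of 4.69 CPM at 24 DAP, against 0.691 CPM at 16 DAP. The genes that fell had a median log2 fold change of -2.46, with 1.22 CPM at 24 DAP against 7.56 CPM at 16 DAP. Over all genes tested the median was 0.04 on the log2 scale, with 3.89 CPM at 24 DAP and 3.90 CPM at 16 DAP. Large changes were more frequent among the rising genes: 266 of them (21.5%) changed by a fitted 32-fold or more, compared with 142 of the falling genes (12.2%). Fitted values of genes without counts at one stage depend on the model's prior count. With the 204 rising and 95 falling genes that had 0 counts in all 3 libraries of the lower stage set to their bound against 3 counts per library, the medians were 2.50 and -2.29, and 124 rising and 69 falling genes reached 32-fold. The smallest class, from 2-fold to 4-fold, held 340 rising genes (27.5%) and 433 falling genes (37.2%).

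**Figure D1:**
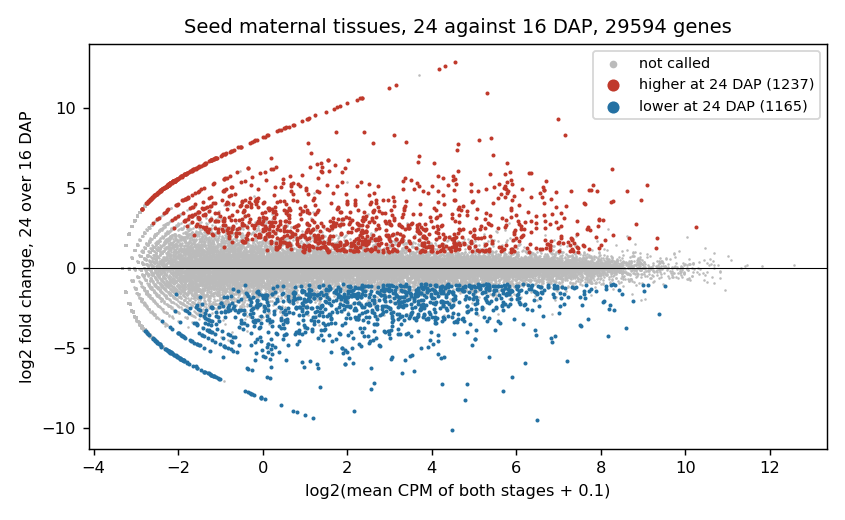
Log2 fold change of each of the 29594 genes tested (24 over 16 DAP, vertical axis) against its log2 mean CPM over both stages plus 0.1 (horizontal axis). Red points are the 1237 genes called higher and blue points the 1165 called lower at 24 DAP; the curved edges at low levels are genes with few or no counts at one stage.

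The split between directions depended on the processing. Median-ratio, upper-quartile and unscaled library sizes and DESeq2 gave 48.4% to 49.7% of calls higher at 24 DAP, compared with 51.5% by the main scaling. A fit to the 6 libraries alone called 710 genes higher and 1043 lower, and a fit to the 12 seed maternal libraries called 640 higher and 1015 lower. Of the 2402 calls, 55.7% and 61.0% were called again in the same direction by these smaller fits, and none turned its direction. These fits tested 23095 and 25081 genes, against 29594 in the main fit. A call on a gene outside a smaller fit counts as not called again and could not turn. How many of the 2402 lay outside was not counted, so the loss is not one of significance alone. The 3 libraries of 24 DAP lay above the 3 of 16 DAP in 1114 of the 1237 rising genes, and below them in 1076 of the 1165 falling genes. Over all genes tested such separation was found upward in 13.8% and downward in 12.6%. The lists were called on these same 6 libraries, which favours separation, so these counts are a description and not further support.

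Changes were found at all levels of abundance. Among genes with a mean of at least 100 CPM over the 6 libraries, 83 of 2462 rose (3.37%) and 57 fell (2.32%). Between 1 and 10 CPM the shares were highest, with 461 of 7786 genes rising (5.92%) and 451 falling (5.79%). The most abundant genes were largely the same at the 2 stages: 81 of the 100 with the highest mean at 24 DAP were also among the 100 highest at 16 DAP. Of these leading genes, 6 of the 100 of the 24 DAP set rose, compared with 4.18% of all genes tested. Of the 16 DAP set, 2 of 100 fell, compared with 3.94% of all. Ranking by the mean of a stage favours genes that are higher at that stage.

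Measures of the whole library overlapped between the stages. The 100 most abundant genes took 13.3%, 13.5% and 12.7% of the counts at 24 DAP and 12.7%, 14.2% and 13.9% at 16 DAP, so the stages overlapped (exact two-sided permutation test, p = 0.5). At 1 CPM or more, 19121, 18925 and 19340 genes were detected at 24 DAP and 19029, 19176 and 19018 at 16 DAP (exact two-sided permutation test, p = 0.8). Without replicate 3 of 24 DAP the difference of the means (24 minus 16 DAP) turned to -51.3 genes, against 54.3 with all libraries. With 3 libraries against 3, the smallest p this test can give is 0.1.

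The named genes were named by rule, among 130 rising and 89 falling genes that were called, whose libraries did not overlap between stages, and that had a mean of at least 100 CPM at the higher stage. In each direction these are the gene with the largest fold change and the gene with the largest difference in CPM. HORVU.MOREX.r3.5HG0500190.1 had 254.8, 271.2 and 229.2 CPM at 24 DAP, against 0.386, 0.413 and 0.403 CPM at 16 DAP. All 3 libraries at 24 DAP were far above all 3 at 16 DAP (log2 fold change 9.30, SE 1.01, edgeR adjusted p = 4.68e-07). It had 0 counts in each library at 4 DAP and at most 9 counts at 8 DAP. In the same interval it rose in the endosperm, to 1948 ± 402 CPM at 24 DAP against 198 ± 302 at 16 DAP, and in the embryo, to 3175 ± 77.5 CPM against 726 ± 314 (mean ± SD, n = 3). The change in the seed maternal tissues was larger than in the endosperm by 6.02 on the log2 scale (SE 1.12, edgeR adjusted p = 0.00102) and than in the embryo by 7.06 (SE 1.13, edgeR adjusted p = 4.68e-05). The 16 DAP endosperm libraries had 547.1, 20.9 and 27.24 CPM, so the mean of that group rests mainly on replicate 1. The size of the difference from the endosperm was not examined without that library.

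HORVU.MOREX.r3.2HG0204520.1 gained the most CPM. It had 2151, 2147 and 1914 CPM at 24 DAP, against 248.1, 462.2 and 390.6 CPM at 16 DAP (log2 fold change 2.53, SE 0.354, edgeR adjusted p = 8.97e-06). The stages did not overlap, and its levels at 4 and 8 DAP were 31.5 ± 6.90 and 35.2 ± 3.48 CPM (mean ± SD, n = 3). This gene was far less abundant in the other tissues, at 5.42 ± 0.915 CPM in the endosperm and 34.96 ± 4.21 CPM in the embryo at 24 DAP (mean ± SD, n = 3). It rose there too, by 2.06 (SE 0.424, edgeR adjusted p = 0.00129) and 3.17 on the log2 scale (SE 0.379, edgeR adjusted p = 9.88e-08). A difference between tissues in its change was not shown, with 0.46 (SE 0.548, edgeR adjusted p = 0.743) against the endosperm and -0.65 (SE 0.489, edgeR adjusted p = 0.421) against the embryo.

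HORVU.MOREX.r3.6HG0621740.1 showed the largest fold decrease. It had 0.126, 0.423 and 0.167 CPM at 24 DAP, against 192.3, 134.7 and 211.3 CPM at 16 DAP (log2 fold change -9.48, SE 1.47, edgeR adjusted p = 0.000102). Its level was low before as well, with at most 2 counts in a library at 4 DAP and 3.66 ± 2.66 CPM at 8 DAP (mean ± SD, n = 3). Of the 4 seed maternal stages, 16 DAP therefore had its highest level. Outside these tissues it reached 30.05 CPM in replicate 2 of the 16 DAP endosperm, while replicates 1 and 3 of that group had 0 and 0.293 CPM. It was called lower at 24 DAP in the endosperm too (log2 fold change -8.69, SE 1.99, edgeR adjusted p = 0.00523). That call rests mainly on this 1 library. A difference between tissues in its change was not shown, against the endosperm or the embryo.

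HORVU.MOREX.r3.7HG0718530.1 lost the most CPM. It had 208, 182.4 and 77.4 CPM at 24 DAP, against 1327, 998.1 and 1186 CPM at 16 DAP (log2 fold change -2.86, SE 0.536, edgeR adjusted p = 0.000453). The 2 stages did not overlap. Earlier it had risen, to 1068 ± 241 CPM at 8 DAP against 45.6 ± 17.5 CPM at 4 DAP (mean ± SD, n = 3; log2 fold change 4.60, SE 0.581, edgeR adjusted p = 2.47e-06). In the embryo it had 71.6 ± 22.1 CPM at 24 DAP and 34.03 ± 22.9 CPM at 16 DAP (n = 3), and the change in the seed maternal tissues differed from that by -4.04 (SE 0.737, edgeR adjusted p = 0.000184). Against the endosperm the difference was -2.24 (SE 0.716, edgeR adjusted p = 0.0531), just outside the threshold.

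**Figure D2:**
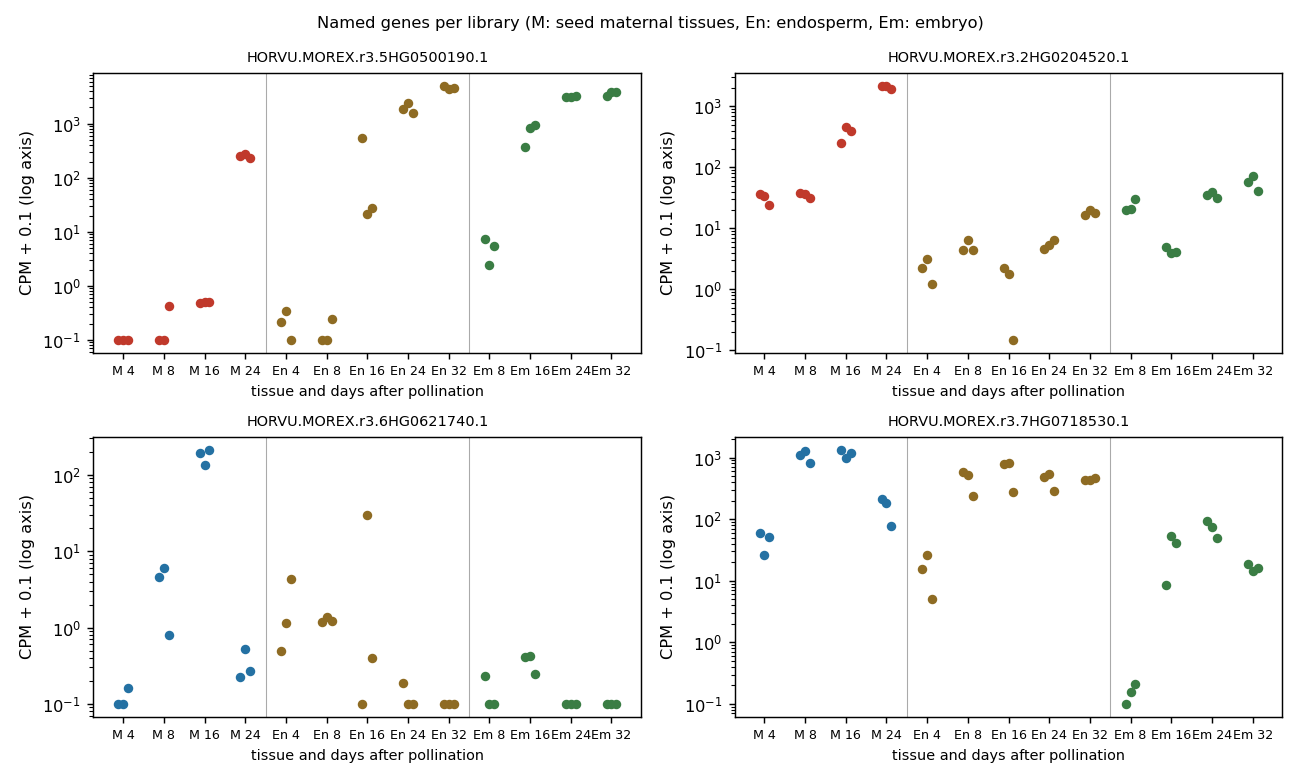
CPM plus 0.1 on a log axis for the 4 named genes, with 1 point per library, in seed maternal tissues (M) at 4, 8, 16 and 24 DAP, endosperm (En) at 4 to 32 DAP and embryo (Em) at 8 to 32 DAP. The upper panels show the rising genes, with the 24 DAP maternal libraries above the 16 DAP ones, and the lower panels the falling genes.

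The rising genes together took 4.47%, 5.42% and 4.57% of the counts at 24 DAP, against 0.789%, 1.06% and 0.952% at 16 DAP. The falling genes took 1.31%, 1.04% and 1.11% at 24 DAP, against 4.25%, 4.10% and 4.33% at 16 DAP. These sums describe genes chosen for their change and were not tested. The gain was spread over many genes: 10 genes made up 20.5% of the summed increase and 53 genes made up 50% of it. For the falling genes, 10 made up 17.8% of the summed decrease, and 60 were needed for 50%.

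The earlier stages show where each list came from. In the 4 DAP libraries the falling genes held 9.67% ± 0.976 of the counts, in those of 8 DAP 9.28% ± 0.601, in those of 16 DAP 4.23% ± 0.117 and in those of 24 DAP 1.15% ± 0.140 (SD, n = 3). Of the 1165 falling genes, 413 (35.5%) had their highest mean at 4 DAP, 436 (37.4%) at 8 DAP and 316 (27.1%) at 16 DAP. Those with the highest mean at 16 DAP had medians of 0.897, 2.43, 7.92 and 0.989 CPM in the order of the stages (4, 8, 16 and 24 DAP). For the rising genes the share was 0.871% ± 0.0745 in the 4 DAP libraries, 0.590% ± 0.0147 in those of 8 DAP, 0.934% ± 0.136 in those of 16 DAP and 4.82% ± 0.522 in those of 24 DAP (SD, n = 3). For 1068 of the 1237 (86.3%) the highest mean was at 24 DAP, and 150 (12.1%) had it at 4 DAP. The medians of those 150 were 6.66, 1.55, 0.556 and 1.82 CPM in the same order. Both lists were chosen for a difference between 16 and 24 DAP, which favours an extreme level at one of those stages.

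The change between 4 and 8 DAP was measured in other libraries. In that interval 10.8% of all genes tested were called, 6.61% higher and 4.24% lower at 8 DAP. Among the falling genes, 230 (19.7%) had been called higher and 84 (7.21%) lower at 8 than at 4 DAP. Among the rising genes the calls were 159 higher (12.9%) and 140 lower (11.3%). The falling genes thus included more that had risen earlier than that had fallen earlier, while the rising genes were nearly even. Leaving out a single 4 or 8 DAP library moved the count of calls of that interval, 3210, to between 2209 and 4677.

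**Figure D3:**
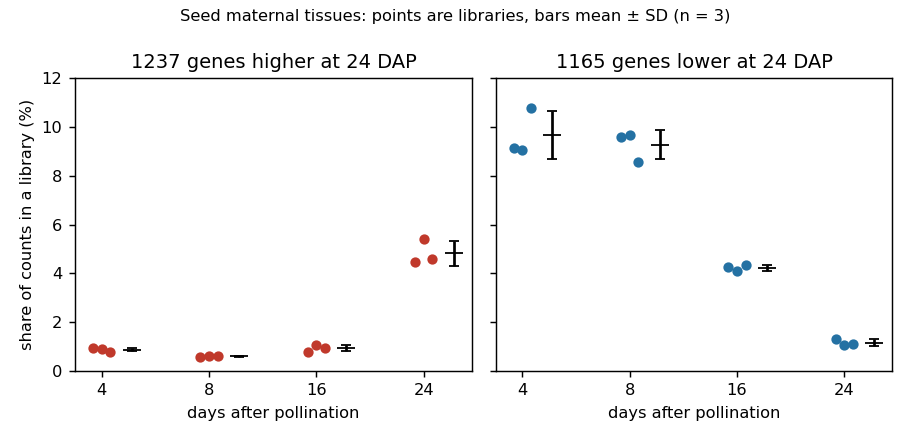
Share of a library's counts (%) taken by the 1237 genes higher at 24 DAP (left) and the 1165 genes lower at 24 DAP (right), for the 12 seed maternal libraries by days after pollination. Points are libraries and bars give the mean ± SD of 3; the rising genes stay near 1% until 16 DAP and reach 4.82% ± 0.522 at 24 DAP, and the falling genes decrease from 9.67% ± 0.976 at 4 DAP to 1.15% ± 0.140.

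Many calls concerned genes that were nearly silent at one stage. At 16 DAP, 312 of the rising genes (25.2%) had at most 3 counts in each library, and 204 of them had 0 in all 3. At 24 DAP, 192 of the falling genes (16.5%) had at most 3 counts in each library, and 95 had 0. Most of these genes were scarce at the other stage too, with a median of 0.412 CPM at 24 DAP for the rising and 0.529 CPM at 16 DAP for the falling. Among the rising ones, 9 had a mean of at least 10 CPM at 24 DAP, and these were at least 86.9-fold higher than at 16 DAP, computed against 3 counts per library. Among the falling ones, 2 had at least 10 CPM at 16 DAP and were at least 115-fold lower at 24 DAP. Of the 9, 8 were more abundant in the 24 DAP embryo, where the 9 had a median of 260 CPM, against 17.5 CPM in the seed maternal tissues at that stage. None of them was more abundant in the 24 DAP endosperm, where their median was 0.147 CPM. A single library held at least 90% of the summed level at the higher stage in 10 rising and 7 falling genes. Of these 7, 6 were high in replicate 1 of 16 DAP.

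Many genes typical of the endosperm were among those called higher. A set of 48 endosperm-typical genes was chosen from other libraries: at least 50 CPM in the endosperm at 8, 16 and 24 DAP, under 1 CPM in the 4 and 8 DAP seed maternal groups, and less than 10% of the endosperm level in the embryo of each stage. They summed to 1395, 2397 and 732 CPM in the 24 DAP seed maternal libraries, against 36.8, 155 and 141 CPM at 16 DAP. The stages did not overlap (exact two-sided permutation test, p = 0.1, the smallest that 3 against 3 can give). Of the 48 genes, 38 rose (79.2%, compared with 4.18% of all genes tested) and none fell (3.94% of all), with a median log2 fold change of 3.58. Their sum at 24 DAP was 2.05% of that in the endosperm at the same stage, and 0.136% at 16 DAP.

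A set of 13 embryo-typical genes, chosen likewise at 20 CPM, summed to 20.1, 20.6 and 25.7 CPM at 24 DAP, against 5.56, 6.24 and 8.59 CPM at 16 DAP (exact two-sided permutation test, p = 0.1). Here 7 of 13 rose (53.8%, compared with 4.18% of all genes tested), none fell (3.94% of all) and 6 did not pass the test. Their sum was 2.12% of the embryo's at 24 DAP and 0.399% at 16 DAP. At 24 DAP, 2 of the 48 endosperm-typical and 6 of the 13 embryo-typical genes were under 1 CPM. At 16 DAP, 25 and 10 were under 1 CPM, and 3 of the embryo-typical genes had 0 counts in every library. Single genes did not share 1 ratio: at 24 DAP the endosperm-typical genes ranged from 0.167% to 6.89% of their endosperm level and the embryo-typical genes from 0.119% to 12.4% of their embryo level.

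**Figure D4:**
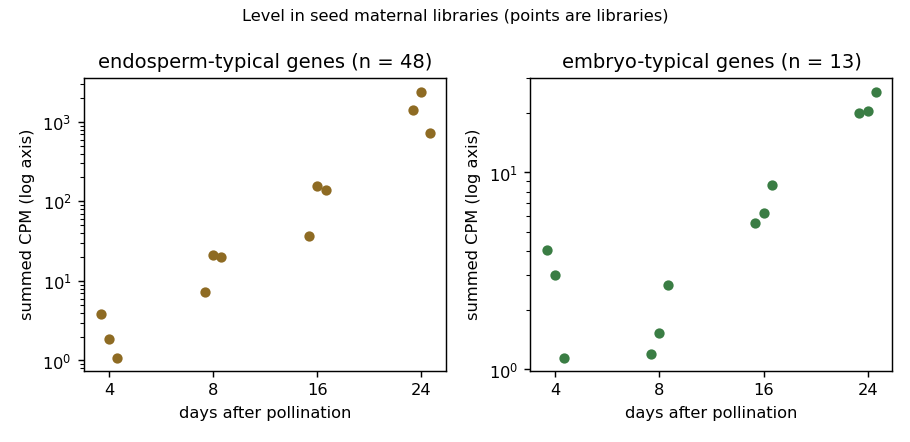
Summed CPM (log axis) of the 48 endosperm-typical genes (left) and the 13 embryo-typical genes (right) in the 12 seed maternal libraries, by days after pollination, with 1 point per library. Both sums were higher in the 3 libraries of 24 DAP, at 732 to 2397 CPM and at 20.1 to 25.7 CPM, than in those of 16 DAP; the genes were chosen to be under 1 CPM at 4 and 8 DAP, so the low sums at those stages are set by the choice.

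The rising genes included some that were very abundant in the filial tissues. Together they took 46.7% ± 1.10 of the counts in the endosperm and 18.4% ± 0.200 in the embryo at 24 DAP, compared with 4.82% ± 0.522 in the seed maternal tissues (mean ± SD, n = 3). Their median level was not higher there, at 4.69 CPM in the seed maternal tissues at 24 DAP, 2.75 CPM in the endosperm and 3.97 CPM in the embryo. Under 1 CPM were 38.5% of them in the endosperm and 36.7% in the embryo, compared with 45.9% and 39.3% of all genes tested. At least 10 times the seed maternal level was found in the 24 DAP endosperm for 210 of the 1237 (17.0%) and in the embryo for 224 (18.1%), compared with 3.83% and 4.49% of all genes tested. For the falling genes these shares were 3.86% and 13.4%. To give the size of the overlap, the level of each gene in the endosperm and embryo was multiplied by the percentages above, 2.05% and 2.12% at 24 DAP and 0.136% and 0.399% at 16 DAP. This product covered 50% or more of the increase for 196 rising genes (15.8%) and of the decrease for 8 falling genes. Summed over the rising list it equalled 27.9% of the 24 DAP level. The other 1041 rising genes took 3.90%, 4.44% and 4.16% of the counts at 24 DAP, against 0.751%, 0.984% and 0.885% at 16 DAP. They are not free of the overlap, since genes covered by less than 50% remain among them. A run of 3 such genes on 1H summed to 1470 CPM in the seed maternal tissues and 30897 CPM in the endosperm at 24 DAP. The endosperm percentages also come from 48 genes of which 38 are on the rising list. Of the named genes, the product covered 41.4% of the increase of HORVU.MOREX.r3.5HG0500190.1 and 0.0489% of that of HORVU.MOREX.r3.2HG0204520.1. Whether RNA of the endosperm or embryo entered the dissected samples was not tested. In these bulk samples, a change in the mix of cells and a change in RNA per cell cannot be told apart.

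The same interval was then examined in the other tissues, whose libraries are separate. In the endosperm 7.01% of genes tested were called, 3.47% higher and 3.54% lower at 24 than at 16 DAP. Of the 1237 genes rising in the seed maternal tissues, 240 also rose in the endosperm (19.4% of this list and 23.3% of the 1028 endosperm genes) and 28 fell. Of the 1165 falling genes, 206 also fell in the endosperm (17.7%, and 19.7% of the 1047) and 27 rose. Without replicate 2 of the 24 DAP endosperm, 1299 genes in place of 2075 were called in the endosperm, and the shared calls were 176 rising and 127 falling. With unscaled library sizes 62.3% of endosperm calls were higher, compared with 49.5% by the main scaling.

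In the embryo 21.5% of genes tested were called, 9.75% higher and 11.8% lower at 24 than at 16 DAP. There 411 of the rising genes also rose (33.2%, and 14.2% of the 2885 embryo genes) and 400 of the falling genes also fell (34.3%, and 11.5% of the 3487). Opposite calls were fewer, with 110 rising genes that fell in the embryo (8.89%) and 75 falling genes that rose there (6.44%). Seed maternal medians of the 110 were 2.98 CPM at 24 DAP and 0.674 CPM at 16 DAP, beside embryo medians of 3.03 CPM at 24 DAP and 18.7 CPM at 16 DAP. In all 3 tissues, 167 genes rose (13.5% of the rising list) and 101 fell (8.67% of the falling list). Among all genes tested, the share called in both other tissues cannot exceed that of the endosperm, 3.47% higher and 3.54% lower. Not called in the same direction in either other tissue were 753 of the rising genes (60.9%) and 660 of the falling genes (56.7%). The same share of all genes tested was not counted, but it must be larger than in both lists. Only 3.47% of all were called higher in the endosperm and 9.75% in the embryo, and 3.54% and 11.8% lower. The 2 shares therefore do not mark the lists as particular to the seed maternal tissues. Among the 1041 rising genes with under 50% of the increase covered by the product above, 201 (19.3%) also rose in the endosperm and 346 (33.2%) in the embryo.

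**Figure D5:**
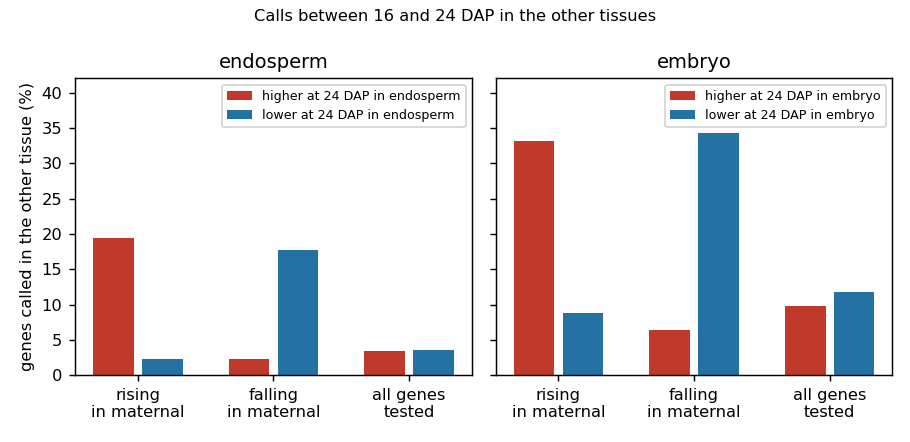
Share of genes (%) called higher (red) or lower (blue) at 24 than at 16 DAP in the endosperm (left) and the embryo (right), among the 1237 genes rising in the seed maternal tissues, the 1165 falling there and all 29594 genes tested. Rising maternal genes were called higher in 19.4% and 33.2%, and all genes in 3.47% and 9.75%.

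Whether the change differed between tissues was tested by interaction terms over all genes. Against the endosperm, 1646 genes (5.56%) differed, of which 975 (3.29%) had the more positive change in the seed maternal tissues and 671 (2.27%) the more negative. The median of all genes was 0.12 on the log2 scale by the main scaling and -0.02 with unscaled library sizes, which gave 590 and 770, so that the majority turned. Against the embryo, 4469 genes (15.1%) differed, 2536 (8.57%) with the more positive and 1933 (6.53%) with the more negative change in the seed maternal tissues. Upper-quartile factors turned this majority too, with 2228 and 2361. Of the 1237 rising genes, 399 (32.3%) had the more positive change against the endosperm. Without the 196 genes set apart above by the product, it was 290 of 1041 (27.9%). One of the 399, HORVU.MOREX.r3.1HG0000780.1, had 22690 and 25310 CPM in the endosperm at 16 and 24 DAP. Its seed maternal levels were 14.4 and 407 CPM. Whether endosperm RNA in the dissected samples adds to these counts was not tested. Within the rising list, 168 genes (13.6%) had a change called larger than in both other tissues, and within the falling list 113 (9.70%) had a deeper one. The share of all genes tested that passed both terms was not counted. The lists were also chosen on part of the same difference, so the counts of 168 and 113 are a description.

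Genes that were nearly absent from the filial tissues made up a smaller share of the rising genes than of all genes, and a share of the falling genes near that of all. Of the rising genes, 101 (8.16%) stayed below 1 CPM in each of the 27 endosperm and embryo libraries, and of the falling genes 181 (15.5%), compared with 14.1% of all genes tested. At a limit of 5 CPM the shares were 23.8%, 34.8% and 37.9%.

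The identifiers name a chromosome and number the genes along it. Over the assembled chromosomes the share of tested genes called ran from 6.62% on chromosome 6H to 9.38% on 1H. The rising share was highest on 1H, with 199 of 3816 genes (5.21%), and lowest on 6H, with 114 of 3685 (3.09%). The falling share varied less, from 3.53% on 6H to 4.21% on 2H. Changed genes often had a neighbour with the same change: the next tested gene in identifier order also rose for 136 of 1233 rising genes (11.0%), compared with 4.20% of all genes, and also fell for 115 of 1156 falling genes (9.95%), compared with 3.94%. The next gene went the opposite way for 3.33% and 3.46%. The longest rising run held 8 genes in a row on 1H, which summed to 413 CPM at 24 DAP and 9.59 CPM at 16 DAP in the seed maternal tissues and to 12524 CPM in the 24 DAP endosperm. For 4 of these 8 genes the product of other-tissue levels described above covered 50% or more of the increase, and for all 5 genes of the next longest rising run, also on 1H. The longest falling run held 5 genes on 3H, which summed to 49.6 CPM at 24 DAP and 714 CPM at 16 DAP, with 0.336 CPM in the 24 DAP endosperm and 176 CPM in the embryo. How reads that match several near-identical copies were counted is not given in the sources used here, so values of single genes in such runs are uncertain.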

How the data were processed

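The authors deposited whole-number read counts per transcript entry for 39 libraries, not normalized and not pooled. HISAT2 2.1.0, SAMtools and Subread 1.5.2 are listed in the submitters' processing notes, without settings. The genome build, the use of strand and the handling of reads with several matches are not given in the sources used here. The table has 83990 entries, of which 33623 had 0 counts throughout. The reference gene table matched 0 identifiers, so genes carry no names, no described gene lists were counted and no sequences are printed.

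CPM was computed over each library's total. filterByExpr with the 13 groups kept 29594 genes, which were tested with edgeR 4.0.16 (limma 3.58.1, R 4.3.3): one coefficient per group over 39 libraries, 26 residual degrees of freedom, TMM factors, robust glmQLFit and glmQLFTest. Calls needed a Benjamini-Hochberg adjusted p under 0.05 over all genes and a log2 fold change of 1 or more in either direction. DESeq2 1.42.0 was an alternative. Counts were simulated for this comparison (28802 genes fitted), with 100 genes changed 2-fold and 100 changed 4-fold. Of the 2-fold changes 33% were called and of the 4-fold changes 76%, with 6 unchanged genes called. Far fewer genes were changed there than the 2402 called in the data, and the adjusted p depends on that number. These percentages and the 6 are therefore not rates for the real list. The changed genes were drawn only from those with a mean of at least 1 CPM. Of the genes tested, 10159 had a mean under 1 CPM over the 6 libraries, and the 2 percentages do not cover these. The simulated counts followed the kind of distribution that the test assumes, so real error rates may be higher. Bounds against 3 counts cover counting error only, since no molecular identifiers are named and reads may be copies of 1 molecule. The named genes are 2 per direction, as stated with them. Members and lists were chosen with earlier results of these data known; the multiplication by the levels of other-tissue genes was added after the values were seen.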

Additional observations from a re-analysis of the deposited data

Results flagged for a closer look

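The following differences between tissues were picked out because an interaction test over all genes (edgeR) passed its threshold. The change of HORVU.MOREX.r3.5HG0500190.1 between 16 and 24 DAP was larger in the seed maternal tissues than in the endosperm by 6.02 and than in the embryo by 7.06 on the log2 scale, although the gene rose in all 3 tissues. Its mean in the 16 DAP endosperm rests mainly on replicate 1. The fits without 1 library given below for this gene left out seed maternal libraries only. HORVU.MOREX.r3.7HG0718530.1 differed from the embryo by -4.04. Over all genes, 1646 differed between the seed maternal tissues and the endosperm in this interval and 4469 between the seed maternal tissues and the embryo. Whether RNA of the endosperm or embryo in the dissected samples adds to these counts was not tested.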

How the results depend on the processing

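The count of 2402 genes was within 1.5 times of itself under 20 of 21 alternatives. The exception was the replicate block in the fit of the 6 libraries alone, with 844 genes. Of the 2402 calls, 29.9% were called again there in the same direction. That fit tested 23095 genes, and a call on a gene outside them counts as not called again. The fit of the 6 libraries has 4 residual degrees of freedom without the block and fewer with it. The cause of the lower count was not tested. With the replicate block over all 39 libraries the count was 2325. The labels do not say whether equal replicate numbers mark paired libraries. Same-numbered libraries of 24 and 16 DAP had deviations from their stage means that correlated at -0.226, -0.153 and -0.0947. No library at 24 DAP correlated best with its own number. The deviations cancel out within each stage, so these correlations constrain each other and cannot settle whether the libraries are paired. Leaving out 1 library gave 1855 to 2227 genes, and 71.9% to 78.9% of the 2402 calls were called again in the same direction.

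The 4 named genes kept direction and call in all 18 alternatives each, with log2 fold changes without 1 library of 9.23 to 9.40 for HORVU.MOREX.r3.5HG0500190.1, 2.33 to 2.74 for HORVU.MOREX.r3.2HG0204520.1, -10.18 to -9.18 for HORVU.MOREX.r3.6HG0621740.1 and -3.13 to -2.52 for HORVU.MOREX.r3.7HG0718530.1. A minimum of 2 on the log2 scale left 1010 genes in the endosperm, 3579 in the embryo, 1875 from 4 to 8 DAP in the seed maternal tissues, 870 for the interaction with the endosperm and 2752 for that with the embryo. No fold minimum gave 3475 in the endosperm.

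Leaving out 1 library gave 1299 to 2545 genes in the endosperm, 5365 to 6064 in the embryo, 2209 to 4677 from 4 to 8 DAP, 1175 to 2067 for the interaction with the endosperm and 3715 to 4423 for that with the embryo. The share of the 10 most abundant genes differed by 0.037 points, opposite in sign to the difference of the 100 most abundant, -0.430, which ran from -0.878 to -0.135 without 1 library. The difference in detected genes ran from -51.3 to 156 without 1 library. After thinning all 6 libraries to equal depth, with any gene of at least 1 read taken as detected, it was 638 genes, with 29345, 29804 and 29303 at 24 DAP and 29445, 28758 and 28335 at 16 DAP (exact two-sided permutation test, p = 0.3). The share of called genes below 5 CPM in every endosperm and embryo library was 29.1%. Depth limits the genes under 1 CPM most, where few counts stand behind a fold change.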
